A study of Mus musculus with 217 samples.

Results

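The genes described here encode the proteins of the cytosolic ribosome and were followed across single cells of the mouse growth plate. They were taken by symbol: every row whose name starts with Rpl or Rps followed by a digit, p or a, without the Rps6k kinase genes. This gave 88 of the 9739 measured genes, 51 named for the large subunit and 37 for the small one. Of the 88, 76 are standard ribosomal protein genes, 5 are paralogs (Rpl22l1, Rpl36al, Rps27l, Rpl7l1 and Rpl39l), 6 are pseudogenes by symbol or annotation, and 1, Rps19bp1, encodes a protein that binds Rps19. No filter on low values was added here, so all 88 are described, but every gene of the deposited table is above 0 in at least 10 columns. Rpl22, Rpl10l, Rpl3l and Rpl26l1 were not analysed here.

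The mice were wild-type, of the strain C57/BL, and postnatal day 7 was the only age; growth plates were dissected from the tibia, and no treatment is named. PolyA RNA of each cell was copied into full-length cDNA, and 1 column per cell was deposited, 217 in all. The labels tie no cell to an animal or litter, so all cells count as 1 sample and no test or p-value is given. In 23 sets, 52 columns correlated above 0.95 with each other, and each set was averaged to 1 profile. A further column, taken to be mixed, was left out. What remains is called a profile here.

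The ribosome is built from a large and a small subunit, each an assembly of ribosomal RNA and proteins that are needed in nearly equal amounts. Most mRNAs of these proteins begin with a run of pyrimidines, the TOP motif, through which their translation is controlled together downstream of the kinase mTOR. In the growth plate, chondrocytes that secrete collagens and aggrecan (Acan) enlarge into hypertrophic cells, whose marker is the collagen gene Col10a1.

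A pyrimidine run near an annotated start is common among these genes, and the genes on which the results below turn are shown with their longest run. Each line gives 30 bases of RefSeq sequence on the gene's strand, 5′ to 3′, from build GRCm38.p6. Capitals mark the longest run of C and T within 50 bases of an annotated start. The run need not lie at the start itself. Relative to that start it began at base -1 in Rps6 and -2 in Rps18 and Rpl38. It began at -36 in Rps21, -22 in Rps25, -20 in Rpl5, 29 in Rpl37 and 30 in Rpl9. Whether a marked run is a TOP motif was not tested. Rpl37 and Rps18 followed the other members closely, and Rps6 is the substrate of S6 kinase. Rpl38, Rps21 and Rps26 had a positive correlation with Col10a1, and Rps25, Rpl9 and Rpl5 a negative one. Rps28, Rpl7l1 and Rps19bp1 have no run of 8 or more there.
Rps6, chr4:86857349-86857378, minus strand: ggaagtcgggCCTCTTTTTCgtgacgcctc
Rpl37, chr15:5116631-5116660, plus strand: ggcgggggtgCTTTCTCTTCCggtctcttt
Rps18, chr17:33955648-33955677, minus strand: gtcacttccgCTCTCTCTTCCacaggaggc
Rpl38, chr11:114668568-114668597, plus strand: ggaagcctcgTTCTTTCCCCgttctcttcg
Rps21, chr2:180257403-180257432, plus strand: gcacgagctaCTTCCTTTCTgcgctctcgc
Rps26, chr10:128626485-128626514, minus strand: aagccgccggaTCCTCTTTCgagtcttggc
Rps25, chr9:44407684-44407713, plus strand: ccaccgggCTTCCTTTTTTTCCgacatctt
Rpl9, chr5:65391383-65391412, minus strand: acgaaagacgTTCTCTCTTTgccccatcta
Rpl5, chr5:107900497-107900526, plus strand: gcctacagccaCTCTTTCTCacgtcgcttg
Rps28, chr17:33824567-33824596, minus strand: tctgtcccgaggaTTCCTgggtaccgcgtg
Rpl7l1, chr17:46782671-46782700, minus strand: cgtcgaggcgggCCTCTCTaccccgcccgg
Rps19bp1, chr15:80264329-80264358, minus strand: gctcctgctccagTTTCTgccgaggagcga

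Start windows were found for 63 of the 88 genes, 73 windows in all, since some genes have more than 1 annotated start. A run of at least 8 pyrimidines lay in 58 of the 73 windows (79.5%), against 31.6% of 8903 windows of all measured genes. The letters CCGGAAG, the core bound by ETS factors, were found on either strand of 300 bases around the start in 27 of the 73 windows of ribosomal protein genes and in 1708 of the 8903 (19.2%). AAGATGGC, the core bound by YY1, was found in 7 of 73 (9.59%) and 445 of 8903. These counts are of windows, not genes, and Rpl35a, whose windows overlap at 1 site, holds more than 1 of the 7. The end of the first motif is the start of the second, so matches can overlap, and a match describes the letters only.

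The deposited values are log2 values that had already been scaled for depth, and whether they account for transcript length is not given in the sources used here. Levels of different genes are therefore given as listed, without reading one as more transcripts than another. A gene was called detected in a profile where its value, taken off the log scale, was 1 or more. The genes were listed high: 46 of the 100 measured genes of highest mean are ribosomal protein genes, and 57 of the 88 were detected in every profile.

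Of the large subunit, Rpl9 had a mean log2 value of 11.52 ± 0.71 (SD over all profiles), Rpl41, the shortest ribosomal protein, 11.50 ± 0.51, and Rpl3, which lies near the peptidyl transferase centre, 11.36 ± 0.68. Rpl4 stood at 11.33, Rpl7 at 11.29 and Rplp0, the base of the stalk that recruits elongation factors, at 11.17. The other stalk proteins, Rplp1 and Rplp2, were listed at 9.52 and 8.43. Rpl5 and Rpl11, which bind 5S ribosomal RNA and can hold the p53 regulator Mdm2, were at 10.14 and 10.33. Of the small subunit, Rps3a1 had the highest mean of all members, 11.84 ± 0.41, with a range from 10.76 to 12.97. Rps18 was at 11.23, Rps25 at 10.98 and Rps19 at 10.94. Rps6, the substrate of S6 kinase, was at 10.92 and Rpsa, also known as the laminin receptor, at 10.30. Both subunits had members at the top of the order, as the plot of levels by gene shows.

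**Figure D1:**
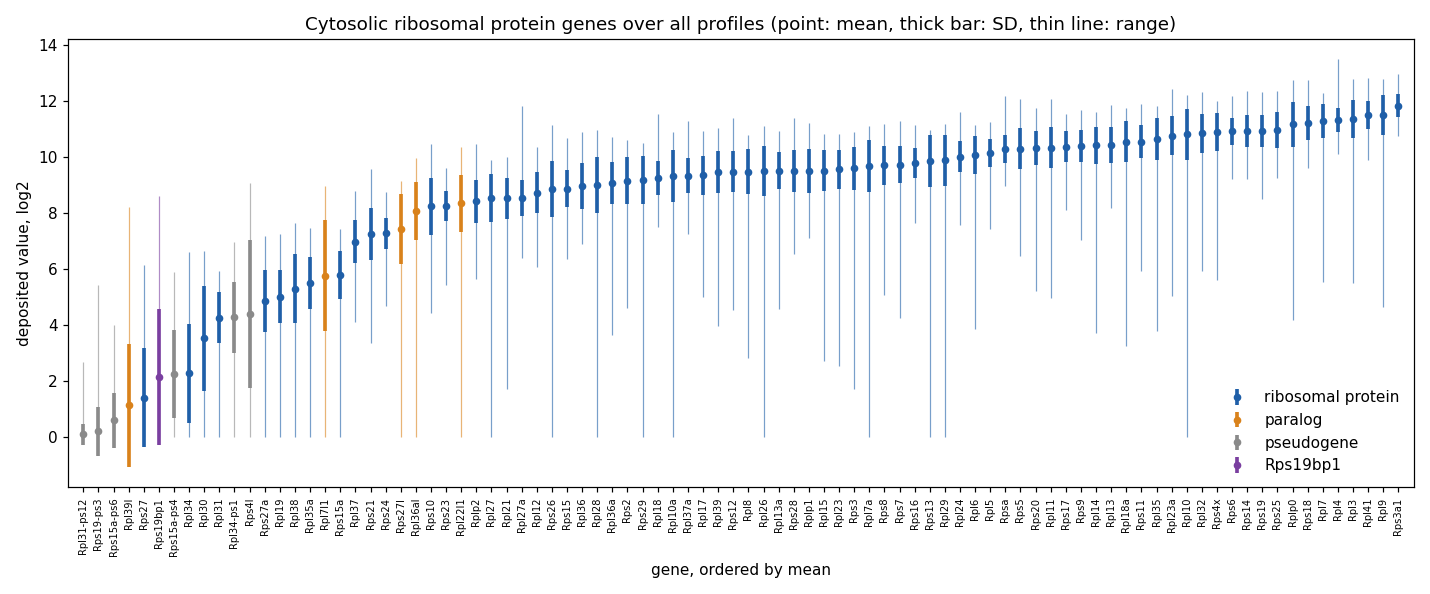
Deposited log2 values of the 88 genes over all profiles, ordered by mean; points are means, thick bars the SD and thin lines the range, coloured by kind of gene. Of the standard members 64 lie above 8 and 9 below 6, and all 6 pseudogenes lie below 6.

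A group of 9 standard members stood at the low end. Of the 76 standard genes, 64 had a mean above 8 and 9 a mean below 6. The lowest was Rps27, with a lowest value of 0, a median of 0.49 and a highest of 6.16; it was detected in 86 profiles (of all profiles, 95% exact Clopper-Pearson interval 38.7% to 53.4%, counting error only). Rpl34 had a mean of 2.28 and Rpl30 of 3.53. Rpl31 (4.27), Rps27a, made as a fusion with ubiquitin (4.85), Rpl19 (5.02), Rpl38 (5.30), Rpl35a (5.51) and Rps15a (5.80) complete the group. Ribosomal protein genes have many near-identical pseudogene copies, and reads from such copies can be split or dropped in counting. Of the 50-base stretches of the Rps27 transcripts, 98.6% also occur in transcripts of other genes, 9 genes in all. Over the 9 low members the median shared fraction was 52.9%, and over the 64 members of mean above 8 it was 54.5%. Rpl9 and Rpl10, both listed above 10, share 93.3% and 92.1%. Across the 76 standard members, Spearman's rho between mean level and shared fraction was 0.12. Values of all members that share sequence are uncertain for this reason, and what part sharing has in the low values was not tested.

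The paralogs and pseudogenes gave values of their own. Rpl22l1, the paralog of Rpl22, was detected in 99.5% of profiles with a mean of 8.35 ± 1.02. Rpl36al (8.08) and its partner Rpl36a (9.08) had a Spearman's rho of 0.25 over the profiles with Acan of at least 5. Rps27l, a p53 target, was listed at 7.44 while Rps27 was listed at 1.41, with a rho of 0.13 in the pair. Rpl7l1, a nucleolar relative of Rpl7, was at 5.77 and in 93.6% of profiles, with a rho of 0.08 with Rpl7. Rpl39l, known from the testis, was detected in 43 profiles (95% exact interval 17.2% to 29.7%), reached 8.21, and had a rho of -0.07 with Rpl39, which was at 9.47. The correlation within these paralog pairs thus ran from -0.07 to 0.25.

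Among the pseudogenes, Rps15a-ps4 (mean 2.25) followed its parent Rps15a with a rho of 0.61, and Rps15a-ps6 (0.60) with 0.30. Rps19-ps3 (0.21, parent rho 0.19), Rpl34-ps1 (4.28, parent rho 0.03) and Rpl31-ps12 (0.09, parent rho 0.01) had weaker relations. Rpl34-ps1 was thus listed in 96.3% of profiles where Rpl34 itself was in 71.1%; reads of the 2 cannot be told apart where their sequences are the same. Rps4l, annotated as a pseudogene, was detected in 79.7% of profiles with a mean of 4.40, and its rho with Rps4x, its X-linked relative (10.90), was -0.11.

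Averaged over the 88 genes, the log2 value of a profile was 8.42 ± 0.51 (SD over all profiles), from 4.35 to 9.74 with a median of 8.46. Summed on the back-transformed scale, the genes took 17.7 ± 3.58% of a profile's total, from 8.07% to 28.7%. The lowest mean belonged to cell 21, which had 1326 genes detected, the fewest of all profiles. In that cell 12 of the 66 members of mean above 8 were at exactly 0, among them Rpl10, Rpl29, Rpl7a and Rps26, yet the genes still took 11.4% of the total. No other profile lacked any of the 66. Without cell 21 the profile mean was 8.44 ± 0.41, with a lowest value of 6.91.

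A list of 10 chondrocyte markers, including Acan, Col9a1, Comp and Matn1, was set beside the Acan limit. Acan itself sets that limit, so the list average is partly fixed by it. Over the profiles with Acan of at least 5 the list averaged 9.08, although Col2a1, the defining cartilage collagen, was listed at a mean of only 0.47 over all profiles and detected in 20.3%. In the 11 profiles with Acan below 5 the list averaged 1.23 and an osteoblast list of 5 genes 6.82, against 1.71 in the others. Over the 11 the osteoblast list ran from 0 to 11.13 with a median of 8.19, so they are not uniform. The lowest Acan inside the limit was 6.67 and the highest outside it 2.91. Ribosomal protein genes averaged 8.27 ± 0.28 in these 11 profiles and 8.43 ± 0.52 in the others, and took 16.7 ± 2.05% and 17.7 ± 3.65% of the total. The values of the 11 lay within the range of the others, and the difference was smaller than the spread between profiles. From here on, correlations, SD excess and values by Col10a1 range use the profiles with Acan of at least 5, while SDs between profiles set beside SDs between repeats are over all profiles.

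**Figure D2:**
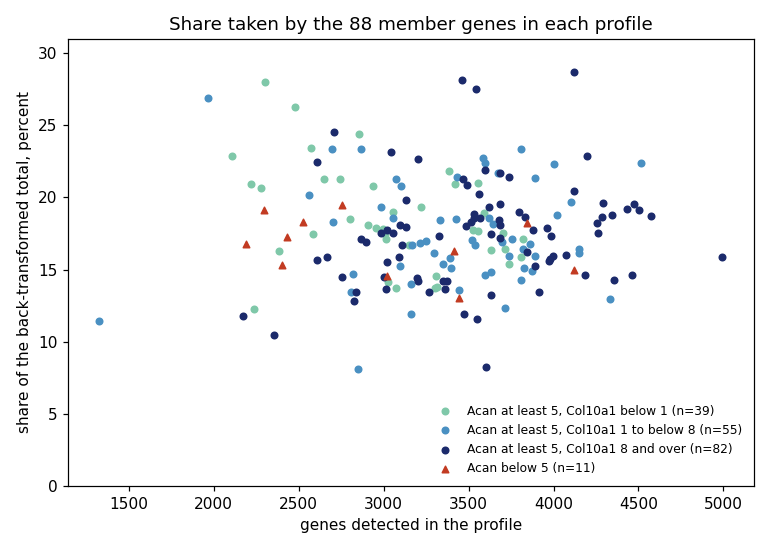
Share of the back-transformed total taken by the 88 genes, in percent, against the number of genes detected, for all profiles, coloured by Acan and Col10a1 range. Shares run from 8.07% to 28.7%, and all 4 groups of profiles overlap.

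No ribosomal protein gene passed the limit set for variable genes. The excess was the SD of a gene over profiles minus the median SD of its neighbours in level. These were up to 100 genes listed just above it and up to 100 just below. Genes near the top of the order, many members among them, have fewer neighbours above than below. A gene counted as variable from 0.5. None of the 88 reached that limit, against 2.05% of all measured genes, and 80 of 88 were below 0, against 50.2%. These shares cover genes of all levels. At 2.05% few of 88 genes would pass, so a count of 0 lies near the background. The 3 genes with the largest excess were Rpl39l (0.22), Rpl10 (0.14) and Rps4l (0.10), followed by Rps13 (0.07), Rpl7a (0.05), Rpl29 (0.03), Rplp0 (0.03), Rps19-ps3 (0.01), Rpl28 (-0.03) and Rps26 (-0.03). Of these 10, Rpl10, Rps13, Rpl7a, Rpl29, Rpl28 and Rps26 were each not detected in cell 21 and detected in every other profile. Neighbours in level include other ribosomal protein genes; taken from the other genes only, they also gave 0 variable members. Among members listed above 10, Rps3a1 (SD 0.40), Rpl4 (0.43) and Rps6 (0.46) varied least over these profiles.

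The genes varied together from profile to profile. Over 3828 pairs of members the median Spearman's rho was 0.40, and 94.6% of pairs were above 0; over pairs of standard members the median was 0.45. The mean of the large subunit and that of the small one had a rho of 0.96. Against the mean of the other members, 75 of 88 reached 0.3, while 1.85% of all measured genes, members included, did so with the member mean. Given genes detected, 75 of 88 again reached a partial rho of 0.3, against 1.69%. Both shares cover genes of all levels, with a median level of 0.93, against 9.48 for the members. No share at matched level was taken. All profiles come from 1 sample, and the values had been scaled before deposit in a way not given, so these correlations are descriptions without a p.

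Rpl37 followed the others most closely, with a rho of 0.89, then Rps14 (0.88), Rpl32 (0.88), Rps18 (0.87) and Rps28 (0.86). Rpl37 had a lowest value of 4.10, a median of 7.04 and a highest of 8.78. The lowest rho values belonged to Rpl31-ps12 (-0.01), Rpl39l (0.01), Rps4l (0.07), Rpl7l1 (0.08) and Rps19bp1 (0.11), none of which is a standard member. Among standard members Rpl34 (0.13), Rpl5 (0.16), Rps27 (0.22), Rpl30 (0.22), Rps4x (0.24) and Rps25 (0.24) followed the others least. Rpl34, Rps27 and Rpl30 are of the low group above, while Rpl5, Rps4x and Rps25 are listed above 10. Of the 56 standard members with a start window, 47 had a run of at least 8 pyrimidines and a median rho of 0.64, and 9 had none and a median of 0.60; the other standard members have no window here.

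**Figure D3:**
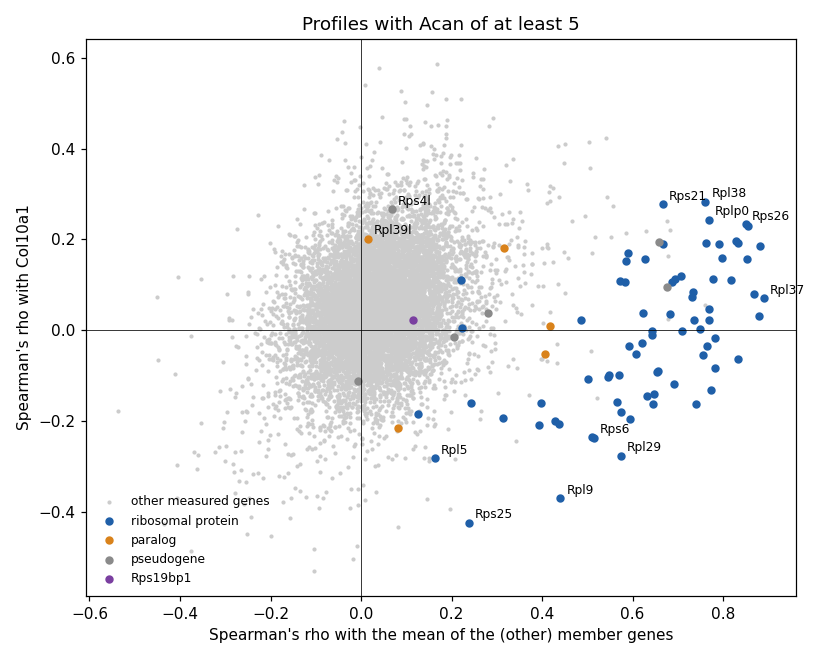
Each point is a gene: Spearman's rho with the mean of the other members on the horizontal axis and rho with Col10a1 on the vertical one, over profiles with Acan of at least 5, with other measured genes in pale grey. Standard members lie to the right, up to 0.89 for Rpl37, and spread from -0.42 (Rps25) to 0.28 (Rpl38) in height.

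Shared movement was also present between the repeat columns. Columns of 1 repeat set differed in the share taken by ribosomal protein genes by 0.11 to 10.3 percentage points, with a median of 3.92 over 23 sets. The SD between repeats (29 degrees of freedom) was 0.46 log2 units for the member mean and 3.04 points for the share, beside 0.51 and 3.58 between all profiles, whereas for genes detected it was 83.6 against 595. The ratio of the SDs was thus 0.92, 0.85 and 0.14. Without cell 21 the member mean varied between profiles by 0.41, less than between repeats. The repeat rule itself, a correlation above 0.95, limits how far such columns can differ.

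The set with the widest range, cells 64 and 89 with a correlation of 0.96, shows the pattern in single values. Genes detected were 2707 and 2711, and the share was 26.3% and 15.9%. Rpl37 stood at 8.20 and 6.44, Rpl36 at 10.61 and 8.11, and Rps18 at 12.83 and 11.11. Rps25 stood at 11.06 and 10.49 and Rpl9 at 12.19 and 11.68, so that these 2 moved less than the other 3. Of genes outside the members, Acan was at 10.80 and 10.05 and Mif at 10.67 and 8.50, so that Mif differed by more than Rpl37 and Rps18 and by less than Rpl36.

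Over all 23 sets, the deviation of a standard member from its set mean had a median Pearson's r of 0.93 with that of the other members, and this r was above 0 in 76 of 76. For 13 of the 76 the SD between repeats was at least as large as the SD between profiles. The median SD between repeats and between profiles was 0.43 and 0.73 for standard members, and 0.28 and 1.32 for the other genes of mean above 8. The SDs between profiles include the profiles with Acan below 5, which widen those of cartilage genes. Without these profiles the SD was 0.74 instead of 2.22 for Acan and 0.57 instead of 2.39 for Col9a1. For Eef1a1 it was 0.39 either way. Of the standard members, the 8 with the largest SDs between repeats were Rpl38 (1.32), Rps27 (1.10), Rpl36 (1.08), Rpl30 (1.02), Rpl37 (0.99), Rps21 (0.97), Rps26 (0.97) and Rplp1 (0.96). The 8 with the smallest were Rps4x (0.13), Rpl9 (0.15), Rpl5 (0.16), Rps6 (0.17), Rpl6 (0.18), Rps3a1 (0.18), Rpl7 (0.19) and Rps25 (0.20). Across standard members the SD between repeats had a rho of 0.56 with how closely a gene followed the others. The part of variation between repeats in the correlations between genes was not tested.

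Base composition moved with the same order. Across the 76 standard members, rho with the member mean was higher for transcripts richer in G and C, with a Spearman's rho of 0.43, and its rho with transcript length was -0.16. For the other genes of mean above 8 these were 0.61 and -0.34. The SD between repeats also went with G and C content (0.38) and with shorter transcripts (-0.43) among standard members. The genes share libraries, and the part of composition in the shared movement was not tested.

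**Figure D4:**
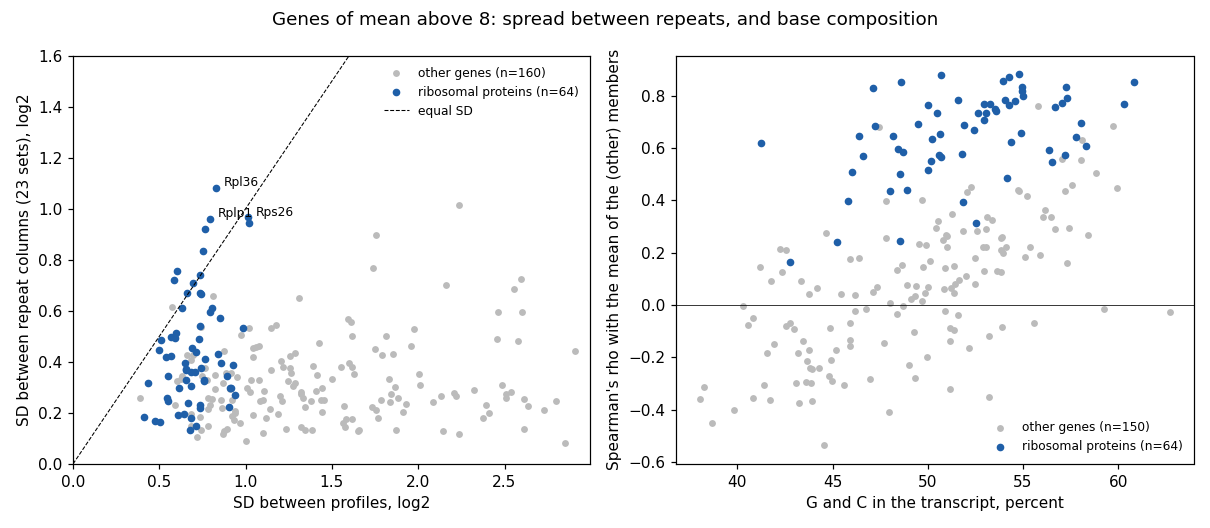
Left, SD between repeat columns against SD between profiles, in log2 units, for genes of mean above 8, with a dashed line at equal SD. The SD between profiles is over all profiles, those with Acan below 5 included. Right, rho with the mean of the members against G and C in the transcript, in percent: ribosomal protein genes lie nearer the line of equal SD than other genes do, and in both classes rho is higher at higher G and C content.

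Outside the 88, genes that followed their mean closely were searched among 2670 genes detected in at least 50% of profiles. Among those of highest rho were the cytokine Mif (0.68), the elongation factor Eef1a1 (0.68), Cox7c of the respiratory chain (0.68) and Fau (0.68), which yields a small subunit protein and which the symbol rule misses. Mt1, a metallothionein (0.63), Hint1 (0.58), the elongation factor Eef2 (0.56), the ferritin light chain Ftl1 (0.55) and Serf2 (0.54) came next. Their SDs between repeats included 0.90 for Mif, 1.25 for Fau and 0.26 for Eef1a1. The lowest rho values belonged to Ssr1, a subunit of the translocon-associated complex (-0.54), Ptp4a1, a phosphatase (-0.45), Gm13363 (-0.45), AI597468 (-0.43) and Col11a1, a cartilage collagen (-0.41).

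Other genes of translation followed the ribosomal protein genes in part. A rho of at least 0.3 was found for 3 of 8 elongation factor genes and 5 of 39 initiation factor genes, including Eif3c (0.38), Eif4b (0.35) and Eif3h (0.35). It was found for 9 of 21 other genes with TOP mRNAs, some of which are also in the other lists, 2 of 76 mitochondrial ribosomal protein genes, and 0 of 42 genes of ribosome biogenesis. The share over all measured genes was 1.85%, and the mitochondrial ribosomal protein genes lay near it. That share covers genes of all levels, with a median level of 0.93. The elongation, initiation and other TOP lists had median levels of 7.17, 5.11 and 7.08. Of the 10 chondrocyte markers, 3 also reached 0.3, so genes outside translation pass the limit too. A share at matched level was not taken. The medians over elongation, initiation, other TOP, mitochondrial and biogenesis genes were 0.08, 0.07, 0.20, 0.08 and 0.04, against 0.03 over all measured genes. Of 12 mTOR and Myc regulators, 1 reached 0.3.

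With Col10a1, the ribosomal protein genes as a group had no clear relation. The member mean had a rho of 0.06 with Col10a1 over these profiles and the share of the total -0.08. In 39 profiles with Col10a1 below 1, 55 with 1 to below 8 and 82 with 8 and over, the member mean was 8.45 ± 0.35, 8.35 ± 0.69 and 8.47 ± 0.44, and the share 18.6 ± 3.52%, 17.5 ± 3.63% and 17.5 ± 3.71%. The middle range holds cell 21, with a Col10a1 of 3.56 and the lowest member mean, which widens its SD. These differences between ranges were smaller than the spread within each range, and the ranges overlap. The ranges are cuts of a value, not cell types.

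Single members differed in direction. Over the 88, the median rho with Col10a1 was 0.005, against 0.05 over all measured genes, and 45 of 88 were above 0, against 67.7%. A rho of at least 0.2 was found for 7 of 88, against 8.55% of all genes, and one of at most -0.2 for 9 of 88, against 1.9%. The low end depends on level: among genes of mean above 8 the same limits were passed by 19.9% and 15.3% of genes, and by 3 and 8 of the 66 members. These shares include the 66 members. Among genes of mean above 8, the members' share with a low rho was thus near the background and that with a high rho below it.

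Rps25, a small subunit protein used in internal initiation, had the lowest rho, -0.42. It ran from 10.44 to 12.21 (median 11.27) in the low range of Col10a1, from 9.65 to 12.35 (11.22) in the middle and from 9.43 to 11.99 (10.95) in the high range. The medians were lower from range to range, and the ranges overlapped. The mean of the high range minus that of the low range was -0.51 log2 units, beside SDs of 0.58 and 0.44.

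Rpl9 had a rho of -0.37, with medians of 11.89, 11.62 and 11.45 and SDs of 0.37, 1.04 and 0.50 across the ranges. Its profiles in the low range ran from 11.43 to 12.80 and in the high range from 9.60 to 12.73, so that the low range began near the median of the high one. Rpl5 (-0.28), Rpl29 (-0.28) and Rps6 (-0.24) followed, with differences of means of -0.27, -0.33 and -0.32. The SD between repeats was 0.20 for Rps25, 0.15 for Rpl9, 0.16 for Rpl5, 0.30 for Rpl29 and 0.17 for Rps6. Other standard members with SDs between repeats of at most 0.20 were Rps4x, Rpl6, Rpl7 and Rps3a1. Their rho with Col10a1 was -0.16 for Rps4x, Rpl6 and Rpl7 and -0.21 for Rps3a1.

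At the other end were Rpl38, needed for translation of a subset of Hox mRNAs (0.28), Rps21 (0.28), Rps4l (0.27), Rplp0 (0.24) and Rps26 (0.23). Rpl38 ran from 2.50 to 6.80 (median 4.87) in the low range, from 0 to 7.32 (5.39) in the middle and from 0 to 7.66 (5.61) in the high range. Rps21 had medians of 6.87, 7.18 and 7.54. The differences of means were 0.64 for Rpl38 and 0.65 for Rps21, smaller than their SDs within ranges and smaller than their SDs between repeats, 1.32 and 0.97. Counted over the list, 6 of 88 members had a difference of at least 0.5, against 22% of all genes, and 3 of 88 one of at most -0.5, against 6.46%.

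**Figure D5:**
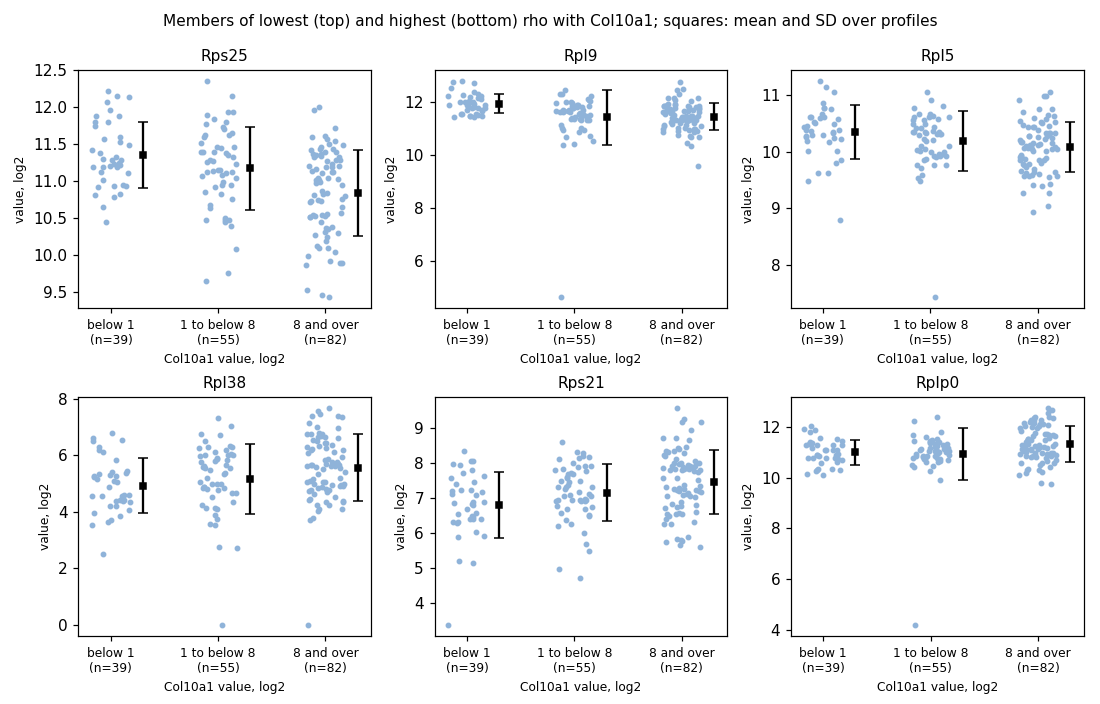
Log2 values of 3 members of lowest (top) and 3 of highest (bottom) rho with Col10a1 in the 3 ranges of Col10a1; blue points are profiles, and black squares with bars the mean and SD. The mean of Rps25 differs by -0.51 between the high and the low range and that of Rpl38 by 0.64, and the points of the ranges overlap in all 6 panels.

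Genes detected per profile moved with Col10a1 as well, with a rho of 0.33 and means of 3049, 3423 and 3557 over the ranges. A list of 6 immediate-early genes averaged 3.77, 4.43 and 5.21. Given genes detected, 3 of 88 members had a partial rho of at least 0.2, against 3.78% of all genes, and 9 had one of at most -0.2, against 3.29%. These shares are over genes of all levels. None was taken among genes of mean above 8, where the members' share with a low rho was near the background before this adjustment. Rps25 kept a partial rho of -0.37 and Rpl9 of -0.34. Across the 76 standard members, rho with Col10a1 had a Spearman's rho of 0.88 with a gene's rho with genes detected, 0.71 with its SD between repeats and 0.61 with how closely it followed the others. The part of these in the order of the members along Col10a1 was not tested.

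The directions also depend on the scaling. As deposited, the mean of the high range minus that of the low range had a median of 0.14 over all genes and -0.02 over the 88, with 40 of 88 above 0. With upper-quartile scaling the medians were 0.22 and 0.33, with 83 of 88 above 0, and with the total taken over the other genes only, 0.13 and -0.08, with 30 of 88. Most members are detected in nearly every profile. Over the 896 genes detected in at least 90% of profiles, members included, the medians were 0.21, 0.55 and 0.15. These differences of means were above those of the members under each scaling. For rho with Col10a1 the medians over the 896 genes were 0.04, 0.15 and 0.02, and over the members 0.005, 0.19 and -0.02. Under upper-quartile scaling the members' median rho was thus the higher, with 57 of 88 members above that of the 896 genes. Rps25 and Rpl9 had negative differences under all 3 scalings, -0.16 and -0.13 under upper-quartile scaling, and Rpl38 and Rps21 positive ones. The rho of Rps25 with Col10a1 was -0.22 under upper-quartile scaling, while that of Rpl9 was -0.067 and that of Rpl5 -0.0064, and those of Rpl29 (0.017) and Rps6 (0.064) changed sign. Over the profiles with Col10a1 detected, the rho of Rpl9 was -0.16.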

How the data were processed

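Values per gene and cell were deposited by the authors on a log2 scale; a pseudocount of 1 and base 2 were taken from the values. The submitters' processing notes name TopHat and mm10. The quantifier, annotation, filters and abundance unit were not given in the sources used here. Back-transformed totals ran from 394406 to 616257, so values were scaled before deposit; depth per cell is unknown, which limits what a value of 0 can show.

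All 217 columns were matched by name, and 0 columns of other samples were present. Averaging repeats and leaving out 1 column gave 187 profiles, 176 of them with Acan of at least 5. That column was taken to be a mixture of cells, which was not tested. Members, lists and limits were chosen with earlier results of these data known. Measures of repeats, composition, shared 50-base stretches and start windows were added after the files were seen. Correlations are Spearman's unless named otherwise, over profiles of 1 sample; partial ones are given genes detected. GENCODE vM21 gave transcripts, matched by symbol for all 88, and RefSeq the start windows.

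The genes named were the 10 highest and 10 lowest in mean, the 10 of largest SD excess, the 5 highest and 5 lowest in rho with Col10a1 and with the other members, the paralog pairs, fixed subunit genes, and 15 genes outside the list, of which 1 is not reported here; others, such as the 8 standard members with the largest and the 8 with the smallest SDs between repeats, were named after their values were seen. Alternatives were repeats kept apart, profiles with few genes left out, other scalings, limits and a pseudocount of 0.1, no Acan limit, Pearson's r and, chosen after seeing the data, leaving out cell 21 and neighbours from the other genes. No doublet caller was run. The steps ran in Python 3.11.15 with SciPy 1.17.1, NumPy 2.4.6, NetworkX 3.6.1, pandas 2.3.3 and matplotlib 3.10.9, and were tested on simulated data.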

Additional observations from a re-analysis of the deposited data

How the results depend on the processing

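Level, share, coherence and the count of variable members moved little. The member mean was 9.16 over standard members only and otherwise stayed within the spread between profiles. The count at a rho of at least 0.3 with the others was 70 to 79 (75 as reported). Variable members numbered 0 under all 13 alternatives, of which an excess limit of 1.0 and standard members only could give nothing else. As reported, a count of 0 lies near the background of 2.05%. The share, too, cannot change with upper-quartile scaling, the total without the members or the pseudocount. The median rho with Col10a1 was 0.19 under upper-quartile scaling. The count at a rho of at least 0.2 with Col10a1 (7 as reported) was 2 with repeat columns kept apart, 14 without the 10% of profiles with fewest genes, 2 with no Acan limit, 43 under upper-quartile scaling, 3 given genes detected, 20 at a limit of 0.15 and 0 at 0.3. The count at most -0.2 (9 as reported) was 21 with repeat columns kept apart, 5 without the profiles with fewest genes, 2 with no Acan limit, 1 under upper-quartile scaling, 16 with the total without the members, 3 with Col10a1 detected, 19 at a limit of -0.15 and 2 at -0.3. Upper-quartile scaling turned the rho of Rpl29 to 0.017 and of Rps6 to 0.064. Rps25 ranged from -0.46 to -0.22 over its 13 alternatives. The causes of these changes were not tested. Unknown depth, unknown length scaling and the lack of named animals limit all values.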
